A study of Homo sapiens with 48 samples.

Results

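The response to BV6 that MDA-MB-231 breast cancer cells still made after knockdown of the transcription factor gene IRF1 was measured on 6 arrays, 3 of cells transfected with siRNA against IRF1 and left untreated and 3 of such cells treated with 50 nM BV6 for 9 h, out of 48 arrays in the study. MDA-MB-231 is an established triple-negative, mesenchymal-like human breast cancer cell line, and BV6 is a Smac mimetic, an antagonist of IAP (inhibitor of apoptosis) proteins. The comparators were MDA-MB-231 cells with siCtrl (a control siRNA), siRELA or siTNFR1 (against TNFRSF1A), each untreated or with BV6 at the same dose and time, 3 arrays per group. The labels state 5 nM of siRNA for 36 h for the control and TNFR1 siRNAs. They name no dose for the IRF1 and RELA siRNAs and do not say whether a target had 1 siRNA or a pool. The genes described are those with a probe detected (detection p under 0.01) on 3 or more of the 6 siIRF1 arrays. The rule passed 9403 probes of 7507 genes, and 7488 genes had their brightest probe among these, out of 9586 genes tested over the 24 siRNA arrays. These 7488 are called the measured genes below.

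As background, Smac mimetics make cIAP1 and cIAP2 degrade themselves, which frees the kinase NIK and so turns on non-canonical NF-kB, in which p100 (NFKB2) is processed to p52 and pairs with RELB. The loss of the cIAPs also changes signalling from TNF receptors, where RELA and p50 form the canonical NF-kB dimer. IRF1 binds the promoters of many interferon-response genes and is itself induced by interferon-gamma and by NF-kB. The comparison asks which part of the BV6 response remained when IRF1 was depleted.

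The knockdown was checked first. In untreated cells, the log2 level of IRF1 was 6.82, 6.87 and 6.06 with siIRF1 against 10.33, 9.76 and 9.71 with siCtrl, a difference of -3.35 ± 0.25 (SE, n = 3 arrays each, limma, adjusted p = 7.3e-10). With BV6 the siIRF1 arrays read 7.31, 7.18 and 6.69, and the IRF1 probe was detected on 1 untreated and 3 BV6 arrays of siIRF1 cells. The lowest siCtrl array therefore lay far above the highest siIRF1 array in either treatment. The BV6 difference of IRF1 was 0.48 ± 0.25 in siIRF1 cells (adjusted p = 0.63) and 0.51 ± 0.25 in siCtrl cells (adjusted p = 0.33), and neither passed the test. With the replicate number as a block over the 24 arrays the adjusted p was 0.15 in siIRF1 and 0.0497 in siCtrl cells. RELA (0.65 ± 0.17, adjusted p = 0.081) and TNFRSF1A (-0.06 ± 0.18) did not pass in siIRF1 cells. Untreated siIRF1 and siCtrl cells differed broadly, in 1754 of the 7488 measured genes (23.4%). The parts of IRF1 loss, of side effects of the siRNA and of the array slide in this count were not tested.

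The arrays detected 10597 to 11861 probes each in siIRF1 cells, within 10597 to 13072 over the 24 siRNA arrays, and arrays of the same group had a Pearson r of 0.984 to 0.990 over genes. By the order of the samples, replicate 1 of both siIRF1 treatments was assigned to slide 1 and replicates 2 and 3 to slide 2. For siCtrl, replicates 1 and 2 were assigned to slide 1 and replicate 3 to slide 2, so slide was partly mixed with siRNA. The sample titles and column names state no slide. Of 10 genes listed as MDA-MB-231 markers, 7 were measured, with mean log2 levels over the 6 arrays from 8.16 (SNAI2) to 13.85. Among them the mesenchymal genes VIM, AXL and CAV1 lay above 12 on each treatment. Of 13 luminal markers 5 were measured (ERBB2, KRT8, KRT18, KRT19 and EPCAM), from 8.49 to 10.89, while ESR1 and PGR were not. Of 13 markers of leukocytes, fibroblasts and endothelium, 12 were on the array and 0 were measured. Because these are bulk samples, fewer cells of a kind and less RNA per cell cannot be told apart.

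BV6 raised a small set of genes in siIRF1 cells, led by the NF-kB pathway itself, and lowered a smaller and weaker set. Of the 7488 measured genes, 74 (0.988%) passed an adjusted p of 0.05 in limma's fit over the 24 arrays, with 50 higher (0.668%) and 24 lower (0.321%). The rises ran from 0.51 to 2.83 log2 and 16 exceeded 1 log2, while the falls ran from -0.46 to -0.97. All 50 higher genes had every BV6 array above every untreated array, where 6.49% of the measured genes do, and all 24 lower genes had them below, where 7.81% do. It follows that each of the 74 moved the same way on both slides, which is no separate support. The genes were called on these same arrays. Their medians on slides 1 and 2 were 0.84 and 0.88 log2 for the higher and -0.64 and -0.70 for the lower genes. The median over all measured genes was -0.02 log2. The size of the set depended on every array: 45, 35 and 33 genes were called without untreated replicate 1, 2 or 3, and 47, 41 and 49 without BV6 replicate 1, 2 or 3. Slide 2 alone, 2 arrays against 2, gave 9 calls, all higher and all among the 74. A replicate block over the 24 arrays, left out of the main fit, gave 109 calls, 71 higher and 38 lower. Without background correction 58 genes were called, 45 higher and 13 lower, and on the deposited matrix values 60, 47 higher and 13 lower. Both settings ended the calls of PLPP3, TRERF1, TRIM6, HMOX1, SLC25A42, ZCCHC24, AUH, BID and NFKBIZ. Several genes stayed called in both settings with a value over 1.5 times smaller. Without background correction TRAF1 went from 2.83 to 1.87, ZNF697 from 1.46 to 0.97, RELB from 1.40 to 0.82, KCNS3 from 1.38 to 0.83, SAA1 from 1.34 to 0.85, TRIM47 from 1.15 to 0.67, STAT5A from 1.05 to 0.61, RNF19B from 1.00 to 0.64 and RGL1 from 0.98 to 0.56. Among the falls OSR1 went from -0.93 to -0.60, RCOR3 from -0.79 to -0.51 and C2CD5 from -0.73 to -0.46, and the deposited matrix also gave JUNB 0.58 rather than 0.87.

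Most NF-kB subunits and inhibitors rose. Of 9 measured members 6 rose and 0 fell, and all 9 were above 0, with a median of 0.89 log2 against -0.02 over all measured genes. NFKB2, the p100 precursor, had log2 levels of 7.84, 7.24 and 7.40 untreated and 9.44, 8.84 and 9.35 with BV6, a rise of 1.72 ± 0.18 (adjusted p = 1.7e-06). RELB, the partner of p52, had levels of 6.38, 6.39 and 6.27 against 7.96, 7.67 and 7.61, a rise of 1.40 ± 0.19. In both genes the groups were far apart, although RELB was detected on only 1 untreated array. NFKBIE, which encodes the inhibitor IkB-epsilon, read 8.23, 7.94 and 8.08 untreated and 9.64, 9.59 and 9.30 with BV6 (1.43 ± 0.16). NFKBIA, which encodes IkB-alpha, the main feedback inhibitor of RELA, read 9.96, 9.71 and 9.77 against 11.19, 10.95 and 10.78 (1.16 ± 0.19, adjusted p = 0.0018). These 4 genes kept their calls whichever siIRF1 array was left out. NFKB1, the p105 and p50 gene, rose by 0.89 ± 0.13 and NFKBIZ, an atypical nuclear IkB protein, by 0.63 ± 0.14 (adjusted p = 0.031). NFKBIZ lost its call without untreated replicate 1, 2 or 3 or without BV6 replicate 2 (adjusted p of 0.074 to 0.23). RELA (0.65), NFKBIB (0.59) and BCL3 (0.38) did not pass. RELA did with the replicate block over the 24 arrays (adjusted p = 0.043).

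The promoters of 5 genes that rose are shown to display matches to the motifs of factors in these pathways. They were picked with the results known, and each holds a match. The first listed window of NFKB2 holds no match to the 3 patterns, and that of RELB and NFKBIE was not analysed here. The sequences are the 250 bases before the transcription start, from RefSeq (GRCh38.p14), using the first start listed for a gene, and capitals mark matches to any of 3 patterns searched on both strands: GGGNNTTTCC (a kB motif), TGANTCA (AP-1) and GAAANNGAAA (an IRF element).
NFKBIA (chr14:35404750-35404999, - strand): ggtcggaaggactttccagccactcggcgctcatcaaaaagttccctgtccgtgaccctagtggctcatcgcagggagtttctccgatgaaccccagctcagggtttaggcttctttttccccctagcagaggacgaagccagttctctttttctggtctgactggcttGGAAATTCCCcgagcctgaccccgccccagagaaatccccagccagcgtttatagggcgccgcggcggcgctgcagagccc
NFKB1 (chr4:102501109-102501358, + strand): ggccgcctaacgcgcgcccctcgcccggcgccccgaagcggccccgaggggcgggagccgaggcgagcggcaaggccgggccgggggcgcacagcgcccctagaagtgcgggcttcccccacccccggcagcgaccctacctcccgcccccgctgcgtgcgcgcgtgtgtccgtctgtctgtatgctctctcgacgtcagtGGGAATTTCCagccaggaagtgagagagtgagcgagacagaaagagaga
TNFAIP3 (chr6:137867009-137867258, + strand): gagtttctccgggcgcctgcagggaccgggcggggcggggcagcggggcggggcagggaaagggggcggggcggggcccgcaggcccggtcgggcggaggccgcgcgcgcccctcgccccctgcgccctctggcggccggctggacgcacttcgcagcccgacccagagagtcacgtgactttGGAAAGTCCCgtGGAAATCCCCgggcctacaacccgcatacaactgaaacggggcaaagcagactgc
IL32 (chr16:3065153-3065402, + strand): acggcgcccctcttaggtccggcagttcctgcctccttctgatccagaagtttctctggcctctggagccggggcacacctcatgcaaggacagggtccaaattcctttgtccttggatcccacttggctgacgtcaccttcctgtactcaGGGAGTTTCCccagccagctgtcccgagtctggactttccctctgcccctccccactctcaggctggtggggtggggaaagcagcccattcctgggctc
CXCL8 (chr4:73740319-73740568, + strand): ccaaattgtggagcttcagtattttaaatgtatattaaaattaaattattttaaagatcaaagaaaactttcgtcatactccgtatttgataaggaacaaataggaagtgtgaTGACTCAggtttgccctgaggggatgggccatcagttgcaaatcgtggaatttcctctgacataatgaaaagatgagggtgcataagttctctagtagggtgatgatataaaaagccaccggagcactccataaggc
NFKBIA holds 1 kB match that begins 81 bases before the start, NFKB1 1 at 49 bases, IL32 1 at 99 bases and TNFAIP3 2 close together, the first at 67 bases. CXCL8 holds an AP-1 match and no match to this kB pattern. The kB pattern was found in 1.73% of 27305 promoters and in 2% of the 6253 measured genes with a window. Among the 50 higher genes, 39 had a window and 7 of these (17.9%) held it: the genes NFKBIA, NFKB1, NFKBIZ, TNFAIP3 and IL32, with IFNGR2 and TGIF2, which were named here after their values were seen. Among the lower genes it was in 0 of 19. The AP-1 pattern was in 1 of 39 higher genes (2.56%), in 3.79% of the measured genes with a window and in 6.6% of all promoters. The IRF element was in 0 of 39 higher genes and in 1 of 19 lower genes (VIPR1). It was in 2.35% of the measured genes with a window and in 3.07% of all promoters. These are matches of letters, and no test was made on them.

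**Figure D1:**
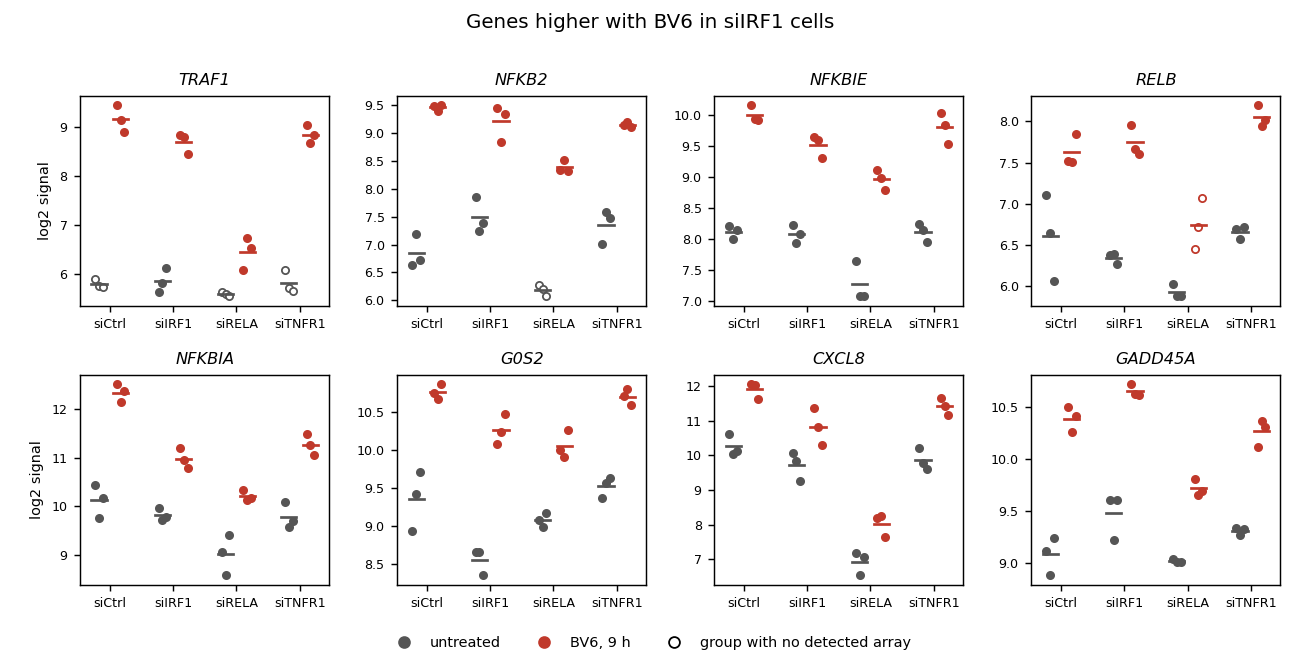
Log2 signal of 8 genes that rose with BV6 in siIRF1 cells, on every array of the 4 siRNAs (3 untreated in grey and 3 BV6 arrays in red per siRNA, bars at the mean, open points where no array of the group detected the probe). In siIRF1 cells all BV6 points lie above all untreated points in each panel, and TRAF1 shows the widest gap, from 6.12 at most untreated to 8.45 at least with BV6.

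TRAF1 had the largest rise of all measured genes. TRAF1, an adaptor of TNF receptors that recruits the cIAPs through TRAF2, read 5.65, 5.82 and 6.12 untreated and 8.84, 8.79 and 8.45 with BV6, a rise of 2.83 ± 0.17 log2 (adjusted p = 1.08e-10). The untreated arrays were near background, with 1 of 3 detecting the probe. TRAF1 was the only 1 of 8 measured genes of the cIAP, TRAF and NIK complex that passed. BIRC2, the gene of cIAP1, was 0.58 higher (adjusted p = 0.11, and 0.049 with the replicate block over the 24 arrays) and MAP3K14, the gene of NIK, 0.11 higher (adjusted p = 0.96). The list's median was 0.07.

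Among brakes on NF-kB signalling 1 of 7 measured genes rose. TNFAIP3 encodes the ubiquitin-editing enzyme A20. It was undetected on all 3 untreated arrays (5.85, 5.57 and 5.73) and detected on all 3 BV6 arrays (6.59, 7.30 and 6.57). By the group means it was 2.15-fold higher (adjusted p = 0.00015 from the fit). For genes undetected in 1 group, the folds given here are ratios of the group means, using the signals of the undetected arrays. They are estimates that rest on undetected signals, and not lower limits. TNFAIP2 (0.62), TNIP1 (0.58), TNIP2 (0.26) and CYLD, a deubiquitinase (0.26), did not pass, and all 7 genes were above 0 (median 0.26).

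Few secreted factors were bright enough to be measured. Of 13 chemokine genes on the array only CXCL8, which encodes interleukin-8, passed the detection rule. It read 10.07, 9.83 and 9.25 untreated and 11.38, 10.82 and 10.29 with BV6, a rise of 1.11 ± 0.26 (adjusted p = 0.031). The groups did not overlap, but untreated replicate 1 and BV6 replicate 3 lay close together, and the call was lost without untreated replicate 2 or 3 or BV6 replicate 1 or 2 (adjusted p of 0.085 to 0.24). Of 6 measured cytokine and growth factor genes, IL32, a proinflammatory cytokine gene, rose by 0.93 ± 0.22 (adjusted p = 0.037, lost without any 1 of 5 arrays, all but untreated replicate 1) and HBEGF, an EGF receptor ligand gene, by 0.88 ± 0.14 (adjusted p = 0.000865). IL6 was 0.52 higher (adjusted p = 0.71). SAA1 encodes the acute phase protein serum amyloid A and has a near-identical neighbour in SAA2 that its probe may also read. SAA1 was undetected on the untreated arrays (7.42, 6.84 and 6.34) and read 8.60, 8.31 and 7.70 with BV6. It was 2.53-fold higher by the group means (adjusted p = 0.0077). Its call was lost without untreated replicate 3 (adjusted p = 0.085) or BV6 replicate 1 (0.070).

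In a list of surface and effector genes taken as NF-kB induced, 3 of 10 measured members were higher. The list was drawn up with earlier results of these data known, so the count is a description only. G0S2, which encodes an inhibitor of the lipase ATGL, read 8.66, 8.65 and 8.35 untreated and 10.08, 10.24 and 10.48 with BV6 (1.71 ± 0.16, adjusted p = 4.6e-07). KCNS3, a modulatory potassium channel subunit gene, rose by 1.38 ± 0.15, from 6.15 to 6.81 over the untreated arrays and from 7.74 to 8.11 over the BV6 arrays. CD83, a surface marker of activated antigen-presenting cells, rose by 0.85 ± 0.14. All 3 kept their calls without any single siIRF1 array. CD82 (0.67) and PLAUR (0.60), the urokinase receptor gene, did not pass, though PLAUR did with the replicate block over the 24 arrays (adjusted p = 0.020).

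Further large rises came from genes of several kinds. GADD45A, a stress-response gene and p53 target, read 9.61, 9.23 and 9.61 untreated and 10.72, 10.63 and 10.62 with BV6 (1.18 ± 0.12, adjusted p = 1.7e-06). Of 12 measured p53 targets, GADD45A and CDKN1A, which encodes the cell cycle inhibitor p21 (0.73 ± 0.16, adjusted p = 0.021), rose, and the median of the list was 0.03. The CDKN1A call was lost without untreated replicate 2 or 3 or BV6 replicate 1 or 2 (adjusted p of 0.094 to 0.13). ZNF697, a zinc finger gene, rose by 1.46 ± 0.14, TRIM47, a ubiquitin ligase gene, by 1.15 ± 0.15 and RNF19B, another ubiquitin ligase gene, by 1.00 ± 0.17. STAT5A, a cytokine-activated transcription factor gene, rose by 1.05 ± 0.22 (adjusted p = 0.018) and lost its call without any single array but BV6 replicate 3. RGL1, a Ral guanine nucleotide exchange factor gene, was undetected untreated and 1.98-fold higher by the group means (adjusted p = 0.005). RNU4-2, a U4 small nuclear RNA gene, rose by 1.51 ± 0.26 and is taken up below with its family. The 23 higher genes outside the naming rule ran from 0.51 to 0.96 log2.

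Few death receptor and apoptosis genes passed. Of 11 measured TNF and TRAIL receptors and ligands, TNFRSF10B, the TRAIL receptor DR5 gene, rose by 0.65 ± 0.13 (adjusted p = 0.0091), and its call was lost without untreated replicate 2 or 3 or BV6 replicate 1 or 3 (adjusted p of 0.050 to 0.068). TNFSF10, the gene of TRAIL itself, read 7.50, 7.03 and 6.35 untreated and 9.05, 8.91 and 7.72 with BV6, groups that did not overlap, but its 1.60 ± 0.44 did not pass (adjusted p = 0.10). Replicate 3 was the lowest in both groups, and TNFSF10 did pass with the replicate block over the 24 arrays (adjusted p = 8.18e-06). TNFRSF10A was 0.78 higher (adjusted p = 0.24, and 0.026 with a replicate block within each siRNA). Of 13 cell death genes only BID, a BH3-only activator of the mitochondrial pathway, rose (0.66 ± 0.15, adjusted p = 0.031), and that call was lost without any array but untreated replicate 1 (adjusted p of 0.057 to 0.23).

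Few immediate early and MAPK feedback genes passed in siIRF1 cells. JUNB, an AP-1 subunit gene, was the only 1 of 16 measured AP-1 and immediate early genes that rose. It went from 6.12, 5.81 and 5.63, all undetected, to 6.65, 6.71 and 6.79. By the group means this is 1.82-fold (adjusted p = 0.005, and 0.053 without untreated replicate 3). KLF4 (0.68), FOSL2 (0.49), MYC (0.33), ATF3 (0.17) and EGR1 (0.16) did not pass, and the median of the list was 0.16. KLF4 passed with the replicate block over the 24 arrays (adjusted p = 0.042). Of 10 MAPK feedback genes, SPRY1, a feedback inhibitor of receptor tyrosine kinases, fell by 0.68 ± 0.15, from 9.82, 9.98 and 9.82 to 9.15, 9.14 and 9.27. The SPRY1 groups lay apart on every array, yet without any single array the adjusted p rose to between 0.052 and 0.13.

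Of 3 lists of interferon-related genes, none had a call in siIRF1 cells without a block, where 0.988% of all measured genes were called. IFNGR2, a subunit gene of the interferon-gamma receptor in none of these lists, rose by 0.51 ± 0.11 (adjusted p = 0.025). Of 6 measured interferon-gamma and IRF1 targets 0 passed (median -0.10), with GBP1 at -0.41, SP110 at -0.49 and WARS1 at 0.21. Of 13 class I antigen presentation genes 0 passed (median 0.11), with the peptide transporter gene TAP1 at 0.55 and TAPBP, tapasin, at 0.46. Of 19 measured type I interferon-stimulated genes 0 passed (median -0.15), ranging from the RNA sensor IFIH1 at 0.76 (adjusted p = 0.12) to IFIT3 at -0.59. With the replicate block over the 24 arrays TAP1 (adjusted p = 0.020) and IFIH1 (0.0077) were called higher and IFIT3 (0.022) lower. In siCtrl cells, without a block, the same measured genes also had few calls. They were 0 for interferon-gamma and IRF1 targets, 1 higher for class I antigen presentation, and 1 higher and 1 lower for type I genes. Their siCtrl medians were -0.004, 0.14 and -0.16. The detection rule kept 6 of 12, 13 of 17 and 19 of 32 tested genes of the 3 lists, so genes too dim in siIRF1 cells are not in these counts.

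Falls were smaller and less certain than rises, and came from genes with no shared list. VIPR1, a receptor gene for vasoactive intestinal peptide, read 8.43, 8.58 and 8.27 untreated and 7.51, 7.61 and 7.52 with BV6 (-0.88 ± 0.16, adjusted p = 0.0056). RCOR3, a subunit gene of REST corepressor complexes, read 8.22, 7.98 and 8.16 against 7.45, 7.40 and 7.15 (-0.79 ± 0.14). MLPH, which encodes melanophilin, a Rab27 effector, read 9.68, 9.68 and 9.55 against 9.02, 8.88 and 8.93 (-0.69 ± 0.11). In all 3 genes the arrays of a group lay close together and the groups well apart. RCOR3 and MLPH kept their calls without any single array, and VIPR1 lost it only without untreated replicate 2 (adjusted p = 0.052).

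SNAI2, which encodes the epithelial-to-mesenchymal transition factor Slug and is one of the MDA-MB-231 markers, read 8.62, 8.84 and 8.18 untreated and 8.001, 7.97 and 7.34 with BV6 (-0.77 ± 0.17, adjusted p = 0.023). A further detected SNAI2 probe differed by -0.68. Second detected probes of NFKB2 (1.63), GADD45A (1.15), CXCL8 (1.47) and SPRY1 (-0.70) also had the sign of the first. The SNAI2 call was lost without untreated replicate 1 or 2 or BV6 replicate 3 (adjusted p of 0.090 to 0.17). C2CD5, a gene of glucose transporter trafficking, fell by 0.73 ± 0.14 and lost its call only without BV6 replicate 3 (adjusted p = 0.064).

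The other named falls each lost their call without 3 or more of the 6 arrays. PLPP3, a lipid phosphatase gene, had the largest fall at -0.97 ± 0.22 (adjusted p = 0.029) and was still called only without BV6 replicate 1 or 2. Of the zinc finger factor genes, OSR1 (-0.93) was still called without untreated replicate 1 or BV6 replicate 3, and TRERF1 (-0.85) without BV6 replicate 1. The mitotic kinase gene NEK6 (-0.79) was still called without BV6 replicate 2 or 3, TRIM6, a ubiquitin ligase gene (-0.72), without untreated replicate 3 or BV6 replicate 2, and WFS1, the Wolfram syndrome gene of the endoplasmic reticulum (-0.70), without untreated replicate 1 or BV6 replicate 3. SLC25A42 is a mitochondrial coenzyme A carrier gene, ZCCHC24 a zinc finger gene and AUH a leucine catabolism enzyme gene. They were detected on all untreated and no BV6 arrays. By the group means they were 1.61-fold, 1.60-fold and 1.56-fold lower. SLC25A42 was still called without untreated replicate 2 or BV6 replicate 1 or 3, AUH without untreated replicate 2 or BV6 replicate 3, while ZCCHC24 lost its call without any single array. The 9 lower genes outside the naming rule ran from -0.46 to -0.68.

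**Figure D2:**
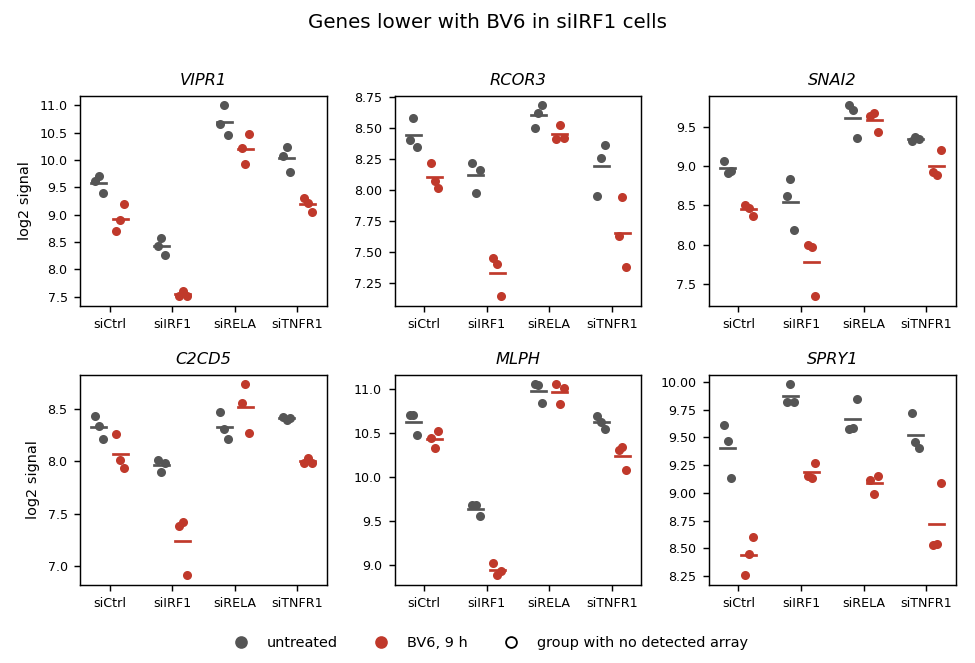
Log2 signal of 6 genes that fell with BV6 in siIRF1 cells, on every array of the 4 siRNAs (grey untreated, red BV6, bars at the mean of 3 arrays). The siIRF1 groups do not overlap in any panel, and MLPH falls by 0.69 in siIRF1 cells and differs by -0.20 in siCtrl cells, a difference of responses that did not pass the test.

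General growth and stress lists stayed near the median of all genes. None of 29 cell cycle, 17 integrated stress response, 20 chaperone, 21 hypoxia and glycolysis, 9 histone, 7 protease, 9 ID and TGF-beta or BMP signalling, 5 luminal or 13 control genes passed in limma's fit, with list medians from -0.12 to 0.10. Within these lists the values furthest from 0 were those of TIMP3 (0.53), a metalloproteinase inhibitor gene, NREP (-0.53) and ALDOC (-0.52), a glycolytic aldolase gene. Of 16 NRF2 and antioxidant genes HMOX1, the haem oxygenase gene, was called. It was undetected untreated (6.05, 6.12 and 6.22) and detected on all BV6 arrays (6.99, 6.72 and 6.82). By the group means HMOX1 was 1.64-fold higher (adjusted p = 0.022). The HMOX1 call was lost without any array but BV6 replicate 2. Its untreated level in siIRF1 cells was 1.31 log2 below that in siCtrl cells, where BV6 gave 0.08 ± 0.16. The difference of these responses, 0.64, did not pass (adjusted p = 0.82), and BV6 gave 0.52 in siTNFR1 cells.

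The size of the response in siIRF1 cells was then set beside that in siCtrl cells, which used other arrays. In siCtrl cells 189 of the measured genes (2.52%) passed, 130 of them higher (1.74%) and 59 lower (0.788%). A block on the replicate number over the 24 arrays gave 305 calls, and leaving out siCtrl BV6 replicate 1 gave 101. Of the 50 genes higher in siIRF1 cells all 50 had the same sign in siCtrl cells and 33 (66%) were called there, which is 25.4% of the 130. Their median was 0.85 log2 in siIRF1 and 0.86 in siCtrl cells, and these genes were chosen on the siIRF1 arrays. Of the 24 lower genes all 24 had the same sign in siCtrl cells and 8 (33.3%) were called, 13.6% of the 59. Across the 7488 genes the 2 sets of differences correlated at Pearson r of 0.523 and Spearman rho of 0.410, as a description over genes that share slides and normalization.

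To call genes on other arrays, the 9 h arrays of untransfected MDA-MB-231 cells were used (2 BV6 arrays against 6 untreated, normalized separately). Those arrays called 95 genes higher (0.955% of 9944) and 26 lower (0.261%), of which 75 and 16 were measured in siIRF1 cells. Detection on the siIRF1 arrays thus still entered the choice. It left out, among others, CXCL1, CXCL2 and RRAD, which are taken up below. With only the 9 h untreated arrays as controls, 54 genes rather than 121 were called in all. The 75 higher genes had a median BV6 difference of 0.56 log2 in siIRF1, 0.99 in siCtrl, 0.75 in siTNFR1 and 0.53 in siRELA cells. In siIRF1 cells 70 of the 75 were above 0 and 26 were called, against 75 above 0 and 58 called in siCtrl cells. For 66 of the 75 the siIRF1 value was smaller in size than the siCtrl value, and for 10 the difference itself passed. These 10 are all the measured genes for which it passed, mostly genes of small structural RNAs, and are taken up below. The 16 lower genes had medians of -0.43 in siIRF1 and -0.44 in siCtrl cells. By their medians, the measured genes that BV6 raised in untransfected cells responded less with siIRF1 than with siCtrl. Those it lowered responded about as much.

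**Figure D3:**
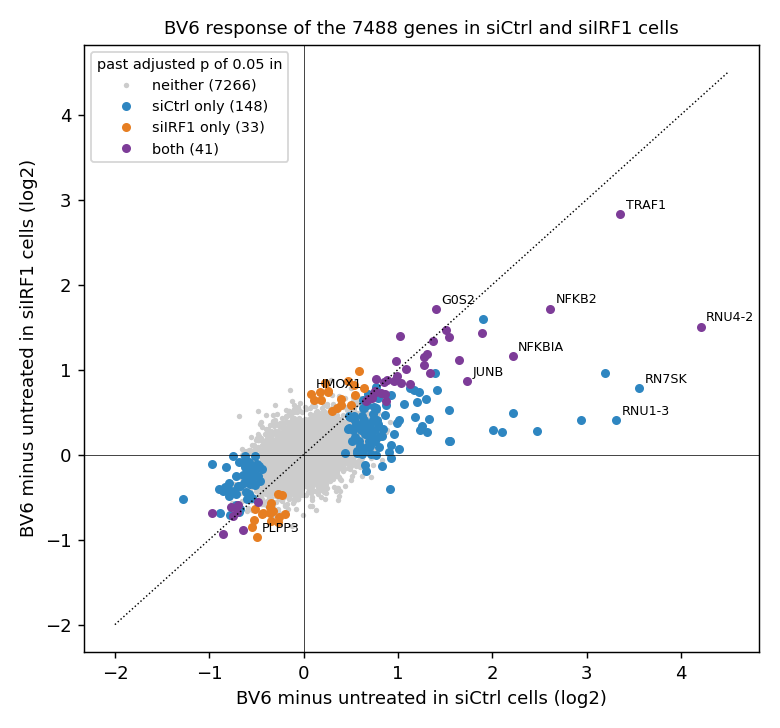
BV6 minus untreated (log2) of the 7488 measured genes in siCtrl cells (horizontal) and siIRF1 cells (vertical), each point a gene, coloured by whether it passed an adjusted p of 0.05 in both (41), in siCtrl only (148), in siIRF1 only (33) or in neither, with a dotted line of equal response. TRAF1 and G0S2 lie near the line, and RNU4-2, RN7SK and RNU1-3 lie far below it.

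The test of the difference between the siIRF1 and siCtrl responses called 10 measured genes (0.134%), all with a smaller response in siIRF1 cells, and 0 with a larger one, while 327 had an unadjusted p under 0.05. The 10 were called, and 10 to 11 genes in all, whichever of the 12 arrays was left out. Of these, 9 are genes of small structural RNAs: RNU1-1, RNU1-3, RNVU1-7 and RNVU1-18 of the U1 family, RNU4-2 and RNU4ATAC of the U4 kind, which work in the spliceosome, RN7SK, which holds the elongation factor P-TEFb inactive, and SNORD3A and SNORD3D, U3 RNAs of ribosomal RNA processing. The last, H2AC17, a replication-dependent histone gene, was named after its values were seen. The U1 and U3 genes are near-identical copies, so their probes may read each other's transcripts and cannot be counted as separate genes with certainty. RNA of these kinds mostly lacks a poly(A) tail, and the labelling kit in the labels is of a type that primes on poly(A). The part of this in the result was not tested.

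RNU1-3 showed the widest gap. It read 6.52, 7.23 and 7.32 untreated and 7.64, 7.69 and 6.96 with BV6 in siIRF1 cells, groups that overlap, against 6.83, 7.38 and 7.17 untreated and 10.64, 10.48 and 10.21 with BV6 in siCtrl cells. The difference of responses was -2.91 ± 0.39 log2 (adjusted p = 0.00021). RN7SK read 7.61, 7.34 and 7.04 against 8.14, 8.54 and 7.64 in siIRF1 cells (0.78 ± 0.26, adjusted p = 0.24), with a response of 3.56 ± 0.26 in siCtrl cells and a difference of -2.78 ± 0.37. RNU4-2 read 6.96, 7.57 and 7.03 against 8.91, 9.06 and 8.11 in siIRF1 cells, where it rose by 1.51 ± 0.26, against 4.21 ± 0.26 in siCtrl cells, a difference of -2.70 ± 0.37. Between untreated siIRF1 and siCtrl cells RNU4-2 already differed by -0.74 (adjusted p = 0.042), while RNU1-3 (-0.10) and RN7SK (-0.22) did not pass.

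In the list of U1, U4 and 7SK RNAs, 1 of 10 measured genes was higher with BV6 in siIRF1 cells (median 0.22) against 7 in siCtrl cells (median 1.39). All 10 had a smaller difference in siIRF1 cells and 5 passed the test of that difference. The medians were 0.66 in siRELA and 0.52 in siTNFR1 cells. RNU6-1 (0.03 against 0.90 in siCtrl) and RPPH1, the RNase P RNA gene (0.29 against 1.23), did not pass the test of the difference, and RNU6-1 did with the replicate block over the 24 arrays (adjusted p = 0.048).

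**Figure D4:**
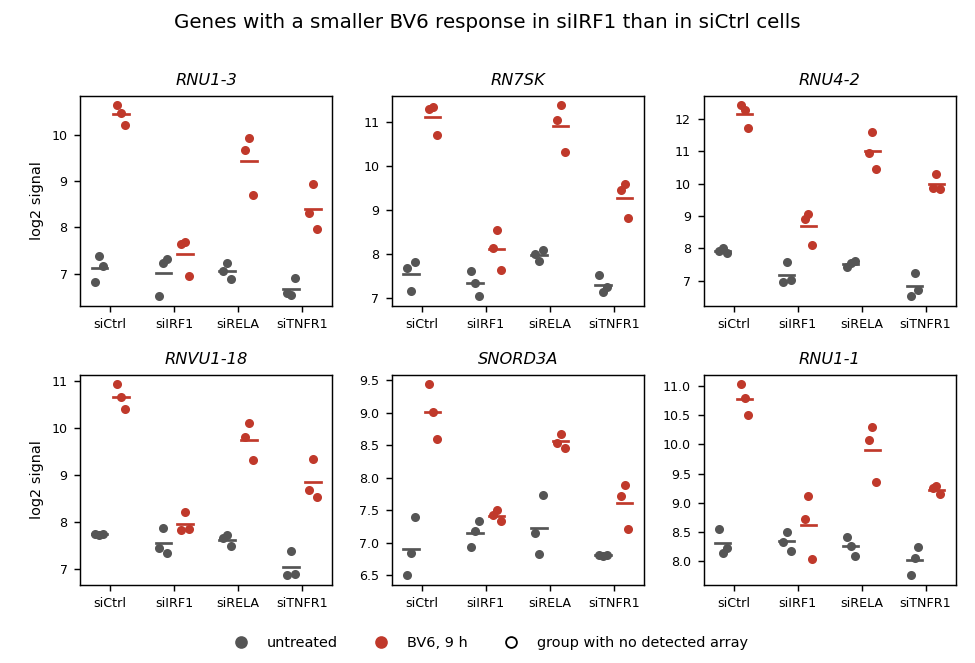
Log2 signal of 6 small structural RNA genes on every array of the 4 siRNAs (grey untreated, red BV6, bars at the mean of 3 arrays). The mean of the siCtrl BV6 arrays is the highest in every panel, and in siIRF1 cells RNU1-3 stays between 6.52 and 7.69 with both treatments.

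Among the NF-kB subunits and inhibitors 6 of 9 genes had a smaller response in siIRF1 cells, with a median difference of -0.46, and 0 passed the test of the difference without a block. NFKBIA rose by 1.16 in siIRF1 and 2.22 in siCtrl cells, a difference of -1.06 (adjusted p = 0.23, and 0.023 with the replicate block over the 24 arrays), and NFKB2 by 1.72 and 2.62, a difference of -0.90 (adjusted p = 0.35). NFKBIE (1.43 and 1.89), TRAF1 (2.83 and 3.36) and CXCL8 (1.11 and 1.65) also had smaller values in siIRF1 cells. RELB (1.40 and 1.02), NFKB1 (0.89 and 0.77), G0S2 (1.71 and 1.40), CD83 (0.85 and 0.85) and HBEGF (0.88 and 0.89) had siIRF1 values at or above, or within 0.01 of, those of siCtrl. The list of NF-kB subunits and inhibitors had a median of 0.89 in siIRF1 and 1.02 in siCtrl cells, the brakes 0.26 and 0.64, and the AP-1 and immediate early genes 0.16 and 0.60, with 1 and 7 genes called. In that last list 13 of 16 genes were smaller in size in siIRF1 cells and 0 passed the test of the difference without a block. EGR1, an immediate early factor gene, read 8.16, 8.20 and 8.01 untreated and 8.23, 8.34 and 8.28 with BV6 in siIRF1 cells, and 6.66, 6.97 and 7.05 against 8.41, 8.72 and 8.19 in siCtrl cells. Its untreated level was 1.23 ± 0.22 higher with siIRF1 (adjusted p = 0.00017) and its BV6 levels were alike, while the difference of responses, -1.39, missed the threshold (adjusted p = 0.069, and 0.021 with the replicate block over the 24 arrays). H3C2, a histone gene (0.07 against 1.01), also had a small share of its siCtrl response, but the difference, -0.94, did not pass (adjusted p = 0.93). Its responses in siRELA (0.15) and siTNFR1 cells (0.09) were small as well.

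Genes with a larger response in siIRF1 cells were not called among those measured. The smallest p-values belonged to EXTL2 (0.30 in siIRF1 and -0.40 in siCtrl cells), ERCC8 (0.46 and -0.68), SRI (0.47 and -0.32), THOC2 (0.76 and -0.14) and ZNF7 (0.39 and -0.32), with adjusted p of 0.35 to 0.56. Other detected probes of 3 of these genes gave smaller siIRF1 values, -0.02 for EXTL2, 0.05 for ERCC8, and 0.03 and 0.09 for SRI. THOC2, with no other probe, was called in siIRF1 cells with the replicate block over the 24 arrays (adjusted p = 0.041).

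A few strong siCtrl responders fell outside the measured genes, since under 3 siIRF1 arrays detected them. Over all 9586 genes the difference from siCtrl was called for 17 (0.177%). CXCL1, a neutrophil-attracting chemokine gene, was undetected on untreated siIRF1 arrays (5.98, 5.92 and 6.45) and detected on 2 BV6 arrays (7.45, 6.82 and 6.95). It was 1.94-fold higher by the group means (adjusted p = 0.0088). In siCtrl cells it rose by 2.74 ± 0.19, and the difference was -1.78 ± 0.26 (adjusted p = 0.00058). CXCL2, its close relative, stayed undetected on all 6 siIRF1 arrays (5.48 to 6.65) and rose by 3.11 ± 0.24 in siCtrl cells. GBP4, an interferon-inducible GTPase gene, also stayed undetected (0.11 ± 0.17) and rose by 1.47 ± 0.17 in siCtrl cells. RRAD, a small GTPase gene, differed by 0.32 in siIRF1 cells and rose by 1.90 in siCtrl cells.

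**Figure D5:**
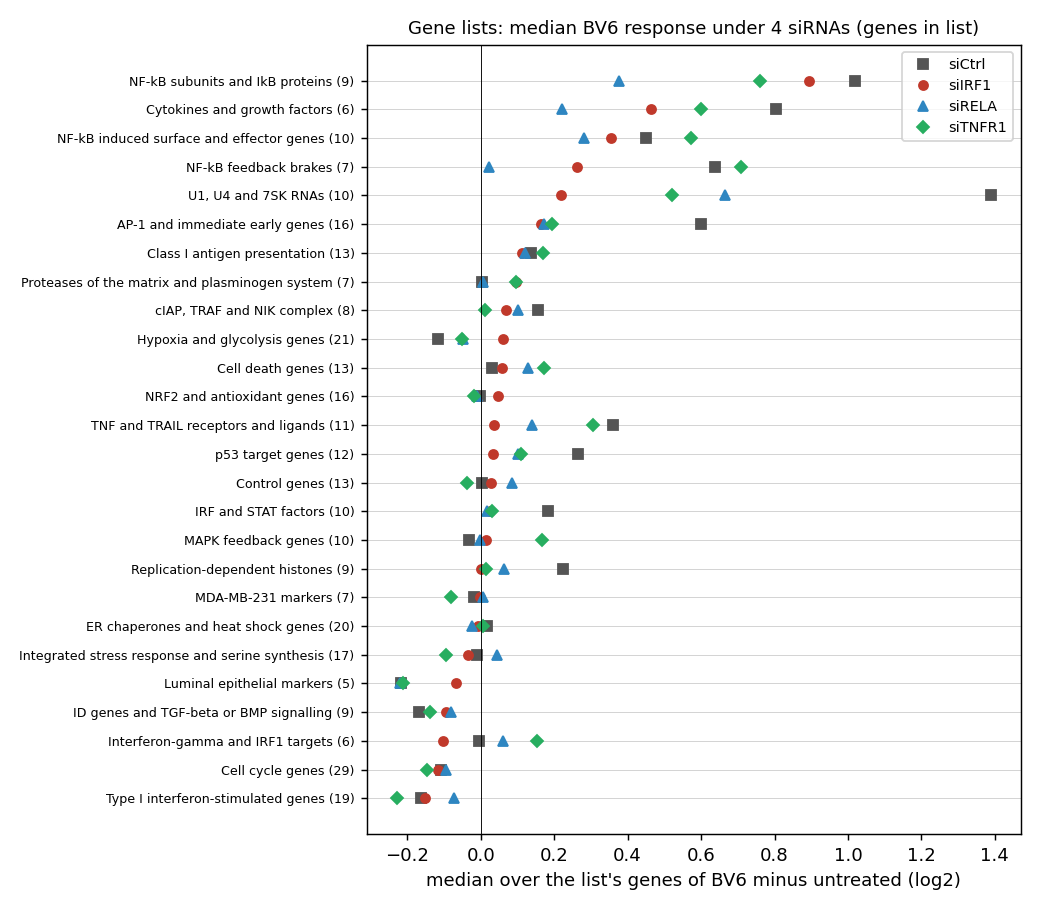
Median BV6 minus untreated (log2) of 26 gene lists with 5 or more measured genes (number of genes in brackets), under each of the 4 siRNAs. The list of NF-kB subunits and IkB proteins is highest in siIRF1 cells at 0.89, and the U1, U4 and 7SK list shows the widest spread, from 0.22 in siIRF1 to 1.39 in siCtrl cells.

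The remaining responses to BV6 were also compared between knockdowns. In siRELA cells 26 measured genes were called (0.347%), all higher, and in siTNFR1 cells 102 (1.36%), 71 higher (0.948%) and 31 lower (0.414%). The 50 genes higher in siIRF1 cells had medians of 0.47 in siRELA and 0.78 in siTNFR1 cells, and 11 and 35 of them were called there. The 24 lower genes had medians of -0.17 and -0.47, with 0 and 6 called. The test of the difference from siRELA called 4 genes (0.0534%), with 247 at an unadjusted p under 0.05. TRAF1 responded more in siIRF1 cells, by 1.97 ± 0.24 (adjusted p = 0.00021), since it rose by only 0.86 in siRELA cells. RN7SK (-2.16 ± 0.37), RNU4-2 (-1.96 ± 0.37) and RNVU1-18 (-1.72 ± 0.30) responded less. With the replicate number as a block over the 24 arrays 8 genes were called, 2 of them with a larger response in siIRF1 cells. The count fell to 1, with a larger response, without any of siIRF1 untreated replicate 2, siIRF1 BV6 replicate 1 or 3, siRELA untreated replicate 1 or 2, or siRELA BV6 replicate 1. It was 2 without siRELA untreated replicate 3 or siRELA BV6 replicate 2, and 7 without siRELA BV6 replicate 3.

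The test of the difference from siTNFR1 called 0 measured genes, with 231 at an unadjusted p under 0.05 in limma's fit and 2 called with the replicate number as a block. GBP4, outside the measured genes, was the only gene called over all 9586 (0.0104%), with -1.49 ± 0.24 (adjusted p = 0.022). With the block the 2 genes were RNU4-2 (-1.67) and RNVU1-18 (-1.40). ZNF697 differed by 1.46 in siIRF1, 1.08 in siTNFR1 and 0.50 in siRELA cells, and its difference from siRELA, 0.97, did not pass (adjusted p = 0.10, and 0.045 with the replicate block over the 24 arrays). CXCL8 gave 1.11, 1.56 and 1.10 in siIRF1, siTNFR1 and siRELA cells, and neither difference passed. These comparisons share the siIRF1 arrays.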

How the data were processed

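RNA of 48 samples was hybridized to Illumina HumanHT-12 arrays. The deposited signal table, named non-normalized, holds log2 values per probe and a detection p-value, per the file headers. How that p-value was made is not stated in the labels. The authors' deposited series matrix, in log2 units, served as an alternative. Of 48107 probes, 3 were dropped for a missing value, and 30112 had 1 symbol. The 24 siRNA arrays were processed with limma 3.58.1 in R 4.3.3: neqc (offset 16), then the brightest probe per gene among those detected (p under 0.01) on 3 or more arrays. Two-sided tests came from 1 fit with a coefficient per group (16 residual degrees of freedom), Benjamini-Hochberg over 9586 genes, a call being an adjusted p under 0.05. Errors after ± are standard errors. The script was tested on simulated data. Arrays give no counts, so their number and signal over background limit precision. Replicates are not stated to come from separate cultures, so p-values reflect the spread of these samples alone, and that spread may be technical. Same-numbered siIRF1 arrays deviated together (r of 0.202 to 0.353 across genes, siCtrl 0.129 to 0.268), so the numbers may pair samples. The main fit had no term for such pairs, and its calls and failures to pass take no account of them. Fits that added a replicate block served only as alternatives. Over the 24 arrays the block gave 109 siIRF1 calls rather than 74, and 305 siCtrl calls rather than 189. Named genes were the 14 largest rises, 12 largest falls, up to 8 calls undetected in 1 group, the largest differences of response, the 6 smallest shares of the siCtrl response, and up to 6 per list of 28 lists. Members, lists and tests were chosen with earlier results of these data known.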

Additional observations from a re-analysis of the deposited data

Results flagged for a closer look

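Responses to BV6 that differed between siRNAs in limma's interaction test over all 9586 genes are given here as values, with adjusted p under 0.05 in each case. Against siCtrl, the response in siIRF1 cells was smaller for small structural RNA genes: RNU1-3 (-2.91 log2), RN7SK (-2.78), RNU4-2 (-2.70), RNVU1-18 (-2.53), RNVU1-7 (-2.23), RNU1-1 (-2.19), SNORD3A (-1.83), SNORD3D (-1.73), SNORA80A (-1.57) and RNU4ATAC (-1.39). It was also smaller for the histone gene H2AC17 (-1.71), the chemokine genes CXCL2 (-2.51) and CXCL1 (-1.78), and RIMBP3 (-1.92), RRAD (-1.58) and GBP4 (-1.36). RNF141, a ubiquitin ligase gene, was the only 1 with a larger response in siIRF1 cells (0.86, adjusted p = 0.042), undetected on all 3 untreated and 2 of 3 BV6 arrays there. CXCL1, CXCL2, GBP4, RRAD, RIMBP3, RNF141 and SNORA80A were detected on fewer than 3 of the 6 siIRF1 arrays.

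Against siRELA the response was larger for TRAF1 (1.97) and smaller for RN7SK (-2.16), RNU4-2 (-1.96) and RNVU1-18 (-1.72). Against siTNFR1 it was smaller for GBP4 (-1.49). Groups of 3 arrays were too small to test for single arrays that stand apart.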

How the results depend on the processing

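The direction was followed for the 42 called genes of the naming rule in siIRF1 cells and the 10 measured genes called in the difference from siCtrl. No other setting and no single array left out turned it around. These genes were called on these same arrays, so a kept direction is no separate support. Named genes that were not called were not followed in this way. Of the 42 called genes, 19 kept the call without each of the 6 siIRF1 arrays. The count of 74 calls moved to 47 with the 12 siIRF1 and siCtrl arrays alone, 38 with the 6 siIRF1 arrays alone, 35 over genes detected on all 6 arrays and 9 on slide 2 alone, and ran from 33 to 49 without single arrays. It was 58 without background correction and 60 on the deposited matrix, with 13 lower calls in each rather than 24. On slide 1, 1 array against 1 gave values without a test. The difference from siCtrl moved from 10 to 2 over genes detected on all 6 arrays, and ran from 10 to 11 without single arrays. That from siRELA moved from 4 to 1 with no filter on detection, to 0 over genes detected on all 6 arrays, to 8 with the replicate block over the 24 arrays and to 8 with array weights, and ran from 1 to 7 without single arrays. That from siTNFR1 moved from 0 to 2 with the replicate block over the 24 arrays or within each siRNA, and was 0 without each single array. The siCtrl count of 189 moved to 118 over genes detected on all 6 siIRF1 arrays, 305 with the replicate block over the 24 arrays and 308 within each siRNA, and ran from 101 to 192 without single arrays. The replicate block raised the siIRF1 count to 109 over the 24 arrays and 108 within each siRNA. Within each siRNA ZCCHC24 lost its call (adjusted p = 0.053). The block over the 24 arrays gained 9 calls and lost 0 in siIRF1 cells among genes named or listed: TNFSF10, IFIH1, PLAUR, TAP1, IFIT3, THOC2, KLF4, RELA and BIRC2. Within each siRNA 10 were gained and 8 lost. At 9 h in untransfected cells 54 genes rather than 121 were called against the 9 h untreated arrays alone. IRF1 has 1 probe, so no other could be tried. Values of dim genes are compressed toward background, so their folds are limited by signal.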
